A study of Mus musculus with 2 samples.

Results

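The region described here is the flank that lies more than 100 and up to 500 kb above the Fos promoter in a circular chromosome conformation capture (4C-seq) experiment on mouse cortical neurons. It comprises 400 positions, 1 kb apart, from 86915834 to 87314834 on chromosome 12 (mm9), out of 2001 positions in the cortical table. The rule that selects them uses position alone, counted from the midpoint of the table at 86814834. "Above" means towards higher coordinates, and distances such as +164 kb are counted from that midpoint, which was taken as the viewpoint because the table extends 1000 kb to each side of it. The flank was set against the positions within 100 kb of the midpoint, 100 on each side and the midpoint itself, and against the 400 positions at the same distances below it.

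The study asked which parts of the surrounding chromosome, putative enhancers among them, the Fos promoter physically meets. The cortical library came from neurons of E15.5 mouse embryos that had been cultured for 10 to 11 days. The study's other library came from the hippocampus of mice aged 3 months, and its table ends at 86914199, short of the flank, so every value here is from cortical neurons. The labels give no strain, genotype or stimulation for either. Both were fixed with 1% formaldehyde, and both used a Fos viewpoint. With 1 library per group, the differences below could not be tested against replicates, and they carry no p-value.

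In 4C-seq, chromatin is cross-linked, cut and re-ligated, and the fragments joined to a single chosen site, the viewpoint, are amplified and sequenced. More joined fragments from a stretch of chromosome mean that it was more often close to the viewpoint, and contact generally becomes rarer as distance along the chromosome grows. Fos is an immediate-early gene of stimulated neurons, and its protein pairs with Jun proteins to form the transcription factor AP-1. Jdp2 encodes a Jun dimerization protein that acts mainly as a repressor at AP-1 sites. Batf encodes a basic leucine zipper protein best known in lymphocytes, where it pairs with Jun proteins and acts together with IRF factors.

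The flank carries the names of Jdp2 and Batf because they come first and second among the protein-coding genes above Fos in the RefSeq annotation. Flvcr2, a membrane transporter, is the third, Erg28, a protein of sterol synthesis, the fourth, and Ttll5, a tubulin-modifying enzyme, the fifth. Tgfb3, a ligand of the TGF-beta family, Ift43, a component of ciliary transport, Gpatch2l and Esrrb, an orphan nuclear receptor, follow. Between Fos and Jdp2 the annotation lists 2 long non-coding RNA genes, Gm32296 and Gm32348, and between Jdp2 and Batf a pseudogene, Gm33312. The annotation is of GRCm38.p6 and the contact table of mm9, and coordinates were not carried from one to the other. The genes are listed by order alone, so which of them lie inside the flank was not determined, and the later ones may lie beyond its far end. Which of them a given window holds was not determined either, and the windows below are named by position.

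The promoters of the viewpoint gene and of both genes that name the flank are shown because the first is the gene of the viewpoint and the other 2 name the flank. Each runs from 250 bases before to 50 bases after the transcription start in RefSeq, with GRCm38.p6 coordinates that must not be compared with the mm9 positions of the windows. Capitals mark TGACGT, the core of the cAMP response element, searched on both strands. For Jdp2, 3 starts are listed, and the sequence given is that of the second in coordinate order.
Fos (chr12:85473640-85473939, + strand): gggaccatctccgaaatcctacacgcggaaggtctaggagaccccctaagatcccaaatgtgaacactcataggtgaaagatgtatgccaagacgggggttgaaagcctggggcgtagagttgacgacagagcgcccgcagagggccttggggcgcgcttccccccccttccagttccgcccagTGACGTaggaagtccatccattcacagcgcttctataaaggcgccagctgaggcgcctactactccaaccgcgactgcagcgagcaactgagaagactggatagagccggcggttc
Jdp2 (chr12:85599166-85599465, + strand): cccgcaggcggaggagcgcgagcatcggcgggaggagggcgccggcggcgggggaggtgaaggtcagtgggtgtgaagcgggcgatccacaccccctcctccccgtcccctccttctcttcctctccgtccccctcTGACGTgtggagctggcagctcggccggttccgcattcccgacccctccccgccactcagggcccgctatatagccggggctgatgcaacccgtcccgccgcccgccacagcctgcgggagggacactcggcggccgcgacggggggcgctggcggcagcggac
Batf (chr12:85686470-85686769, + strand): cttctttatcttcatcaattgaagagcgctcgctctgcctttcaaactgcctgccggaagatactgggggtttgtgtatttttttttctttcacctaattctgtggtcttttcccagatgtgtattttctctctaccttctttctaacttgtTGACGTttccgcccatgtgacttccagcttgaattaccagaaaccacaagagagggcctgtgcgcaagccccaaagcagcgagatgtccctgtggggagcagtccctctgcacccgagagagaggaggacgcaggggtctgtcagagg

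TGACGT occurred once in each of these 3 sequences, at -66 in Fos, -114 in Jdp2 and -98 in Batf relative to the start, and in neither of the other Jdp2 promoters. Of the 32851 RefSeq promoters of this length, 7.51% held it, and the motif was chosen after the sequences had been seen. The AP-1 site TGANTCA, held by 7.81% of promoters, was found in none of the 5 sequences of these genes. GATC, the site cut by DpnII, the second enzyme of the protocol, occurred once in the Fos sequence and once in the Jdp2 sequence shown. It was absent from the Batf sequence and from the other Jdp2 promoters. GATC was present in 47.97% of all promoters. These matches describe the letters in these stretches and nothing about binding.

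All contact signals are fractions of the strongest 2 kb window in the cortical library, which has the value 1 and lies at -16 kb. At each position the authors' table lists the signal in windows of 2 to 49 kb. The signal is labelled as normalized and as a truncated log mean, so it is not a count of joined fragments. How far this treatment flattens high values or the fall with distance was not tested. Unless another size is named, a value is for a 10 kb window centred on the position. The bounds quoted with single windows are the deposited lower and upper bounds, which were read as the spread of values inside the window and not as an error between replicates.

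Over the whole flank, the contact signal of the Fos promoter was close to the level of the table, whose mean was 0.116. The mean signal was 0.119 ± 0.0247 (SD over 400 overlapping windows), the median 0.118, the lowest 0.0681 and the highest 0.182. Within 100 kb of the midpoint the mean was 0.128 ± 0.0359 (SD over the windows centred there), with a highest window of 0.235 at -12 kb. The flank was thus lower than the near region by 0.10 on the log2 scale. That gap is small beside the spread of windows in either region. It is slightly larger than the SD of 0.08 among the 4 blocks of 100 kb into which the flank was divided. Among the same blocks of the flank below the SD was 0.13, larger than the gap. With medians in place of means the log2 difference was -0.04, and in 2 kb windows it was -0.19.

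Against the flank at the same distances below Fos the difference was smaller. There the mean was 0.117 ± 0.0283 (400 windows), a log2 difference of 0.03 in favour of the flank above, less than the SD of 0.08 among its blocks. The highest window below was 0.213, at -366 kb. At 218 of the 400 distances (54.5%) the signal above exceeded that below, and in windows that did not overlap it did so at 23 of 40.

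The near-equality of both sides hid a difference in shape. The flank above began at 0.125 ± 0.0291 at 100 to 200 kb (SD over 100 windows, as for the other blocks), stood at 0.114 ± 0.0218 at 200 to 300 kb and 0.114 ± 0.0238 at 300 to 400 kb, and was again at 0.125 ± 0.0210 at 400 to 500 kb. The most distant block was therefore level with the nearest one. The flank below went from 0.126 ± 0.0341 through 0.118 ± 0.0196 and 0.121 ± 0.0285 to 0.103 ± 0.0239 in the same order of distance. In the first 3 blocks the log2 difference, above minus below, was -0.01, -0.05 and -0.08. In the most distant block it was 0.28, and the signal above was the higher one at 76 of 100 distances. The spreads of windows on the 2 sides still overlapped there. Without that block the whole-flank difference turned to -0.048.

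**Figure D1:**
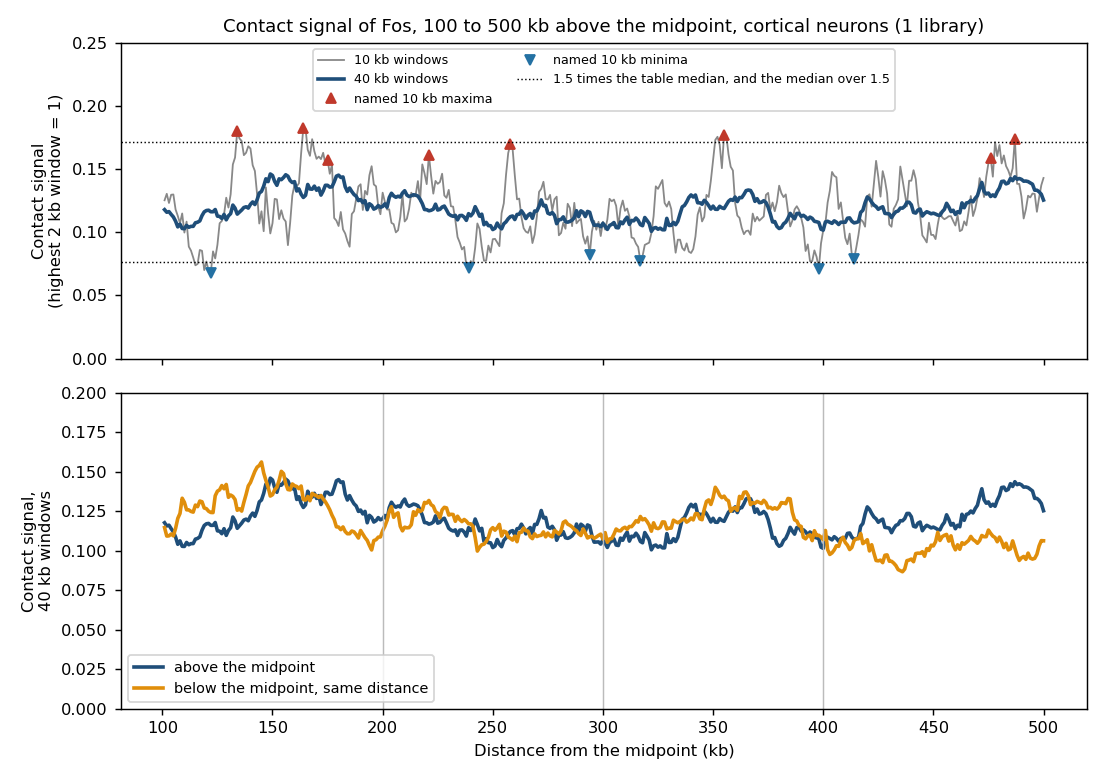
Contact signal of the Fos viewpoint in cortical neurons against distance from the midpoint (kb); the upper panel shows 10 kb windows (grey), 40 kb windows (blue), the 8 named maxima and 6 named minima, and the lower panel shows 40 kb windows above (blue) and below (orange) the midpoint. The 40 kb curve above stays between 0.101 and 0.146, and the curves of both sides part beyond 400 kb, where the one above is higher.

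**Figure D2:**
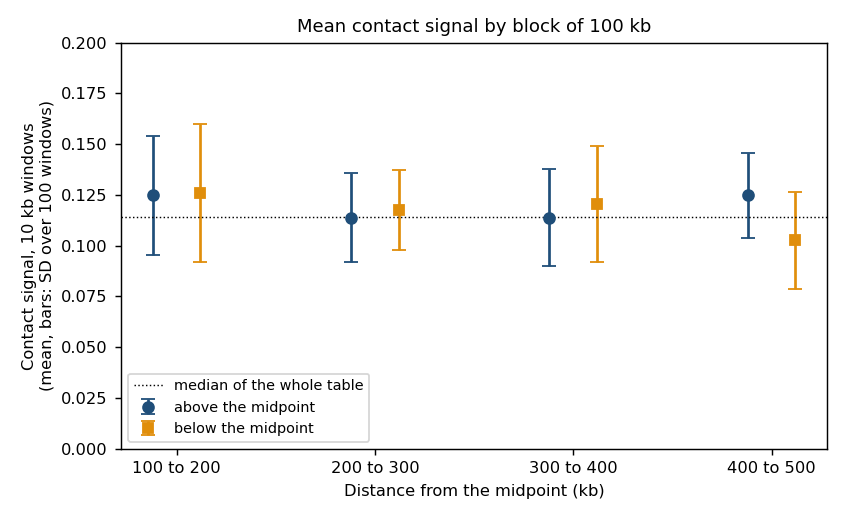
Mean contact signal in 10 kb windows for 4 blocks of distance, above (blue circles) and below (orange squares) the midpoint; bars are the SD over 100 overlapping windows and the dotted line is the table median of 0.114. The means lie close together in the first 3 blocks, and at 400 to 500 kb they are 0.125 above and 0.103 below.

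Distance itself ordered the windows of the flank hardly at all. Over 40 windows of 10 kb that did not overlap, all from the same library, the Spearman correlation of signal with distance was 0.06 above and -0.39 below. Signals at equal distances above and below had a correlation of 0.02 over the same 40 pairs. Neighbouring windows of the flank, 10 kb apart, had a correlation of -0.22 (39 pairs), and windows 20 kb apart one of -0.08 (38 pairs). In this placement of the windows, adjacent 10 kb windows thus did not tend to be alike. Overlapping 20 kb windows did form long stretches, above their table median from +155 to +211 kb and below it from +285 to +344 kb.

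Few windows of the flank stood far from the level of the table. A window was counted as high at or above 1.5 times the table median of 0.114, that is from 0.172 upwards, and as low at or below 0.0762, the median divided by 1.5. High windows made up 11 of the 400 (2.75%), against 3.31% of the 1991 windows of the whole table. Low windows made up 9 (2.25%), against 5.68% of the table. The flank below held 22 high and 19 low windows of 400, and the near region 24 high (11.9% of its windows) and 4 low (1.99%). The 11 high windows lay in 6 stretches, at +134 to +136, +164 to +165, +168, +351 to +352, +355 to +356 and +487 kb. Of the 9 low windows 5 lay in the 8 kb that end at +122 kb, 3 at +238, +239 and +241 kb, and 1 at +398 kb. Both kinds were absent from the flank in 20 kb windows, while 5 kb windows gave 42 high and 49 low. The flank below changed with window size in the same way. Its 20 kb windows held 1 high at 100 to 200 kb and 2 low at 400 to 500 kb. Its 5 kb windows, by block of increasing distance, held 21, 6, 9 and 7 high and 20, 11, 10 and 21 low. The shares of the whole table at these sizes were not computed.

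In 40 kb windows, which overlap their neighbours almost wholly and so form stretches by construction, the table median was 0.116. The longest unbroken stretch above that median ran from +135 to +229 kb with a mean of 0.130. Further long stretches above it covered +336 to +375 kb (mean 0.125) and +463 kb to the end of the flank (mean 0.134). Long stretches below it covered +294 to +335 kb (mean 0.107) and +376 to +417 kb (mean 0.109). Elsewhere in the flank the curve crossed the median back and forth in shorter stretches. The highest 40 kb window was at +149 kb, from 86943835 to 86983834 (0.146, bounds 0.0267 to 0.704). It reaches from the start of the 10 kb maximum at +134 kb to the end of that at +164 kb, while the 10 kb window at its own centre was at 0.0990. The lowest 40 kb window was at +322 kb, from 87116835 to 87156834 (0.101, bounds 0.0138 to 0.573). The ratio of the highest to the lowest is small beside the spread of values inside each of them.

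The 8 highest windows at least 10 kb apart were spread over the whole flank, with 3 in the first block, 2 in the second, 1 in the third and 2 in the fourth. The highest, with a signal of 0.182 (bounds 0.0412 to 0.748), was at +164 kb and spanned 86973835 to 86983834. It was 1.60 times the table median. Of the 1591 windows outside the flank 31 (1.95%) were as high, 20 of them within 100 kb of the midpoint and 11 in the flank below. The next was at +134 kb, from 86943835 to 86953834 (0.180, bounds 0.0362 to 0.820). Both lie in the block nearest to Fos, 30 kb apart, and form the edges of the highest 40 kb window. Their 2 kb windows were alike in the median: inside the window at +164 kb the 9 values ran from 0.0910 to 0.226, with a median of 0.168, and inside that at +134 kb from 0.100 to 0.336, with a median of 0.182.

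The third highest window was at +355 kb, from 87164835 to 87174834 (0.177, bounds 0.0361 to 0.795), in a block whose mean was otherwise among the lowest of the flank. The fourth was at +487 kb, from 87296835 to 87306834 (0.174, bounds 0.0368 to 0.753), and it was the last of the 8 to pass 1.5 times the table median. The same distance below Fos had a signal of 0.0909. The remaining 4 were at +258 kb (0.170), +221 kb (0.161), +476 kb (0.159) and +175 kb (0.157), and the ninth, left out by the rule, would have been at +424 kb (0.156). The last of the named maxima thus hardly differed from the first one left out.

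The maximum at +258 kb held the highest narrow windows. The highest 2 kb window of the flank lay there, from 87071835 to 87073834 (0.413, bounds 0.118 to 1.41), and the second highest lay 4 kb further on, at +262 kb, from 87075835 to 87077834 (0.392, bounds 0.0584 to 2.47). Between them the 2 kb signal was 0.157, 0.0835 and 0.169. The 20 kb window at +258 kb was at 0.0995, below its table median of 0.115. The next 2 kb maxima were at +223 kb (0.344), +138 kb (0.336), +348 kb (0.308) and +475 kb (0.298). Of the 1599 windows of 2 kb outside the flank, 11 (0.69%) were as high as the one at +258 kb, 9 of them within 100 kb of the midpoint and 2 in the flank below.

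The maxima persisted to different sizes as their windows were widened from 10 kb, the size at which they were chosen. From there upwards, the signal at +258 kb first came within a factor of 1.1 of the table median at 16 kb, that at +134 kb at 29 kb, that at +355 kb at 30 kb and that at +221 kb at 31 kb. At +476 kb this took 39 kb and at +164 kb 41 kb, and in 49 kb windows both were above that limit again, at 1.16 and 1.13 times the table median. At +487 and +175 kb it did not happen in any window used from 10 to 49 kb, where the signals were 0.138 and 0.137. At +134, +221 and +487 kb the 2 kb signals were 0.100, 0.0309 and 0.0968, below the table median for that size. Many 2 kb values recur at distant positions, as described below, so no order of the maxima should be read from them.

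**Figure D3:**
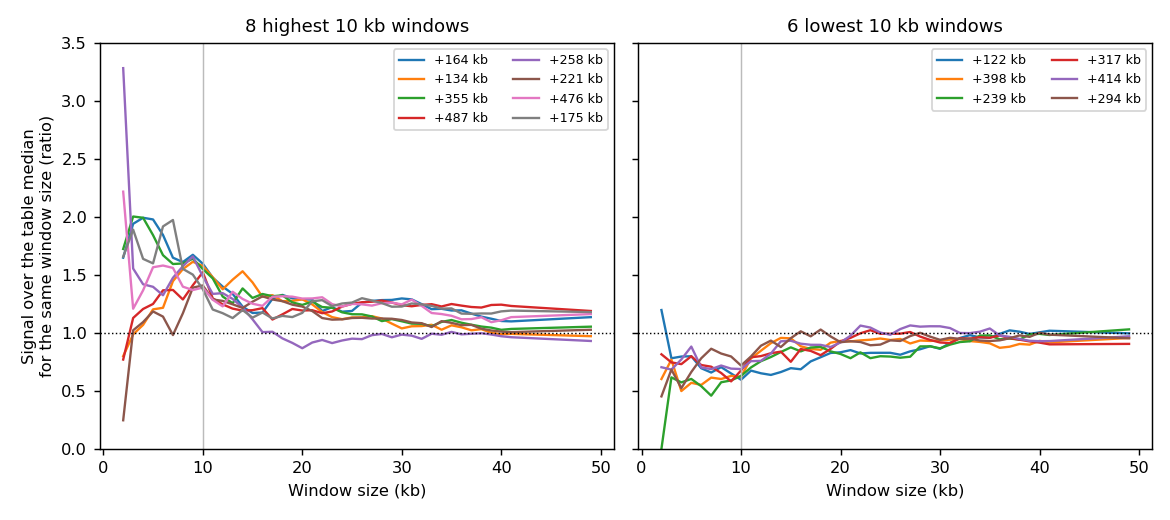
Signal at the 8 highest (left) and 6 lowest (right) 10 kb windows of the flank, divided by the table median for the same window size, against window size (kb); each line is 1 position, drawn straight between 41 and 49 kb, and the grey line marks 10 kb. The maximum at +258 kb drops from 3.28 times the median in 2 kb windows to below it at 20 kb, whereas that at +487 kb is at 0.769 times the median in 2 kb windows and above it from 3 to 49 kb.

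The lowest windows were as scattered as the highest. The lowest was at +122 kb, from 86931835 to 86941834 (0.0681, bounds 0.00953 to 0.352), 12 kb from the second highest maximum. Inside it the 9 windows of 2 kb ran from 0.0357 to 0.150 with a median of 0.0566. The next were at +398 kb, from 87207835 to 87217834 (0.0710, bounds 0.00976 to 0.375), and +239 kb, from 87048835 to 87058834 (0.0718, bounds 0.0126 to 0.323). These 3 passed the limit for low windows. Those at +317 kb (0.0772), +414 kb (0.0786) and +294 kb (0.0820) did not. Of the 1591 windows outside the flank 57 (3.58%) were as low as the one at +122 kb. Near Fos these were 2 and in the flank below 8 of 400, and the others lay beyond 500 kb.

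In 20 kb windows 7 of the 8 maxima lay above the table median and all 6 minima below it. In 40 kb windows the counts were 6 of 8 and 5 of 6. The wider windows contain the 10 kb windows that were chosen as extremes. These counts were therefore partly set by the choice and do not show that the maxima and minima persist. The bounds of every named maximum overlapped those of every named minimum. At +164 kb, for example, the lower bound of 0.0412 lies far below the upper bound of 0.352 at +122 kb. The upper bound lay above the signal of a 10 kb window of the flank by a median of 2.28 on the log2 scale (after the constant 0.00569 was added to both), against 2.44 near Fos, 2.35 in the flank below and 2.10 beyond 500 kb.

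Variation between windows was smaller in the flank than near Fos. The SD of the 10 kb signal was 20.7% of its mean, against 28.03% near Fos and 24.3% in the flank below. In 40 kb windows the values were 9.25%, 9.89% and 11.6%. The 40 highest of the 400 windows of 2 kb held 19.3% of their summed signal in the flank and 20.8% in the flank below, and near Fos the highest 20 held 26.3%. Near Fos this share includes the window of value 1.

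Some 2 kb windows were listed at 0. There were 12 of 400 in the flank (3.00%), 11 near Fos (5.47%) and 11 of 400 in the flank below (2.75%). Over all 1999 windows of 2 kb the share was 3.20%, so the flank did not stand out in this. The 12 windows of the flank formed 9 runs, of which 7 were single windows and the longest were the 3 at +426 to +428 kb. The longest run in the table had 7. In 3 kb windows none of the flank was at 0. The 10 kb signal around the 12 windows had a median of 0.105, against 0.118 around the other 388, and in the middle of the longest run it was 0.148. Whether such windows were measured as empty or could not be measured was not tested.

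The narrow windows were less finely resolved than their decimals imply. The 388 windows of 2 kb above 0 in the flank took 259 distinct values after rounding to 9 decimals. For 299 of them (77.1%) the same value also stood at a position at least 2 kb away in the table. Near Fos and in the flank below this share was 71.1% and 74.6%. Over all 1935 windows of 2 kb above 0 the share was 76.95%, close to that of the flank. The most common value, 0.214 with bounds of 0.148 and 0.309, occurred at 51 positions of the table. In the flank these were +339, +379, +431, +453, +463 and +499 kb, and the bounds were the same at each. The share of repeated values in the flank was 52.5% in 3 kb, 20.2% in 5 kb and 0.25% (1 window) in 10 kb windows, and in 20 kb windows no value stood again at least 1 window length away. None of the 6 named 2 kb maxima had such a copy. What set the repeated values was not tested, and an ordering of 2 kb windows with ordinary values should not be read from them.

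**Figure D4:**
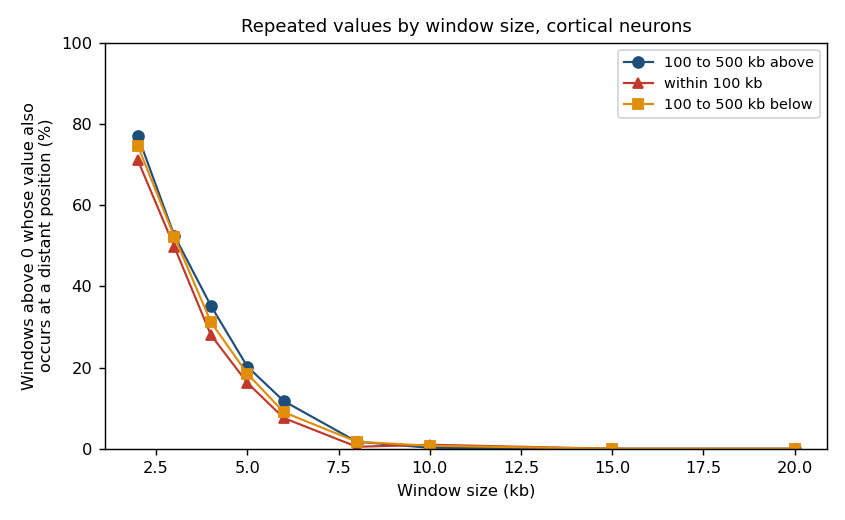
Percentage of windows above 0 whose value also occurs at a position at least 1 window length away in the cortical table, against window size (kb), for the flank above (blue), the region within 100 kb (red) and the flank below (orange). The share in the flank goes from 77.1% in 2 kb windows to 0.25% in 10 kb windows, and the other 2 regions follow the same course.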

How the data were processed

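The series holds 2 libraries of 4C-seq, of which the cortical one covers the flank. Per the submitters' processing notes the build is mm9. Aligner, counter and smoothing program were not given in the sources used here. As deposited by the authors, the table holds contact signal at positions 1 kb apart, in 48 window sizes (41 used: 2 to 41 and 49 kb) with a signal, an upper and a lower bound each. The deposited signal is scaled so that the highest 2 kb window is 1, as the values show. Window sizes were inferred from the missing values at both ends of the table, and each window was placed symmetrically around its position. Read depth is unknown, so no counting interval could be given. Means, SDs and log2 ratios were computed with Python 3.11.15 and numpy 2.4.6, in 10 kb windows, over overlapping windows that are not replicates. The procedure was checked on a simulated table with known levels and maxima. Named windows are the 8 highest and 6 lowest 10 kb windows at least 10 kb apart, the 6 highest 2 kb windows at least 2 kb apart and the highest and lowest 40 kb window. Genes are named by order, as Fos and the first 9 protein-coding genes above it. No test was run, since each group has 1 library. The region, the lists and the rules were chosen with earlier results of these data known. Alternatives were other windows, averages, edges and references, and, added after the values were seen, leaving out each block.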

Additional observations from a re-analysis of the deposited data

How the results depend on the processing

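A log2 difference was counted as moved when it changed by more than the SD of 0.08 among the blocks of the flank, and a count when it changed by over 1.5 times. Of 48 alternative values 33 stayed within these limits. For some results the limits were wide, so this number is no measure of how firm the results are. The difference of 0.03 from the flank below is itself smaller than 0.08. The difference from the near region counted as unmoved when it went from -0.10 to -0.04 with medians. The difference from the near region ran from -0.19 (2 kb windows, which moved it) to -0.04. That from the flank below ran from -0.048, without the block at 400 to 500 kb, which moved it and turned its sign, to 0.07. Without the other blocks it was 0.05, 0.06 and 0.07. The count of distances with more signal above ran from 208 to 218. The count of high windows, 11, became 42 in 5 kb windows, 0 in 20 kb, 0 in 40 kb windows and 0 at 2-fold, and 5 with the flank's own median as reference. The count of low windows, 9, became 49, 0, 0, 0 and 16 in the same order. The shares of the whole table at these settings were not computed. The windows at 0, 12 in 2 kb windows, were 0 in 3 kb and 0 in 5 kb windows. Of the 8 maxima, 8 had a local maximum within 5 kb in 5 kb windows, and 5 in 20 kb windows. The share of other flank positions with a local maximum so near is not given here, so these counts do not show that the maxima hold. With 1 library, unknown depth and repeated values in narrow windows, none of these values has an experimental error.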
